A study of Mus musculus with 2 samples.

Results

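The genes described here are the cyclins, the cyclin-dependent kinases (CDKs) with the activator Cdk5r1, and the CDK inhibitors of the MC3T3-E1 line, which comes from mouse calvaria and behaves like immature osteoblasts. They were chosen by symbol and by a combined count of at least 20 in both libraries, and 49 of the 54 rows whose symbol fits passed, out of 55487 rows in all. The 5 rows left out, Ccna1, Ccnb3, Cdk5r2, Cdkn2a and Cdkn2b, were listed at 0 counts in both libraries. The row with the fewest counts that stayed in was Cdk3, with a total of 24. The matricellular genes Ccn1 to Ccn6 are not cyclins and are not part of the set. RNA was sequenced from cells given 10 nM parathyroid hormone (PTH) and from untreated cells, both labelled 1 h, with 1 library per group. Both cultures were kept in medium with 10% fetal bovine serum at a seeding density of 25000 cells per cm2 (12-well plates), and PTH was added 24 h after seeding. The PTH library held 70036872 counts and the untreated library 66302211.

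Cyclins are regulatory subunits that switch on CDKs. D-type cyclins with CDK4 or CDK6, and E-type cyclins with CDK2, drive cells through G1 into S phase by phosphorylating the retinoblastoma protein, and A-type and B-type cyclins with CDK2 and CDK1 carry S phase and mitosis. INK4 inhibitors block CDK4 and CDK6, and CIP/KIP inhibitors act mainly on CDK2 complexes. A second branch of the family, with cyclins C, H, K, L and T, serves transcription and RNA processing. PTH acts on osteoblasts through a receptor coupled to cyclic AMP and is known both to raise and to restrain their proliferation, depending on the setting.

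With 1 library per group the differences have no check against replicates, so p-values are not given. Each ratio below is PTH over untreated, of counts scaled to library size, and the range in brackets is a 95% exact interval that covers counting error only, with each deposited count taken as 1 read. The table may not hold single reads: 883 rows had 4 counts in the PTH library, more than the 641 rows with 3 or the 395 with 5, and 814 against 687 and 372 in the untreated library. Intervals were therefore also made from the counts divided by 4. A gene was taken as higher or lower when its whole interval lay beyond 1.5-fold, and "rose" and "fell" are not used for the others. Of the 49 genes, 3 were higher (Cdkn1b, Ccno and Cdkn1c) and 2 were lower (Cdk5r1 and Ccnf) in the PTH library. Those are shares of 6.12% and 4.08%, beside 5.39% higher and 3.54% lower among all 16408 compared rows, so the counts lie near the background of the libraries. The median log2 ratio of the 49 genes was 0.00, and that of all compared rows was 0.00. Among the 43 members with at least 1000 counts, 1 was higher and 2 were lower (2.33% and 4.65%), beside 3.25% and 1.57% of the 9549 rows of that depth. As these are bulk cultures, a change in the share of cells in a cell cycle phase and a change in RNA per cell cannot be told apart.

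**Figure D1:**
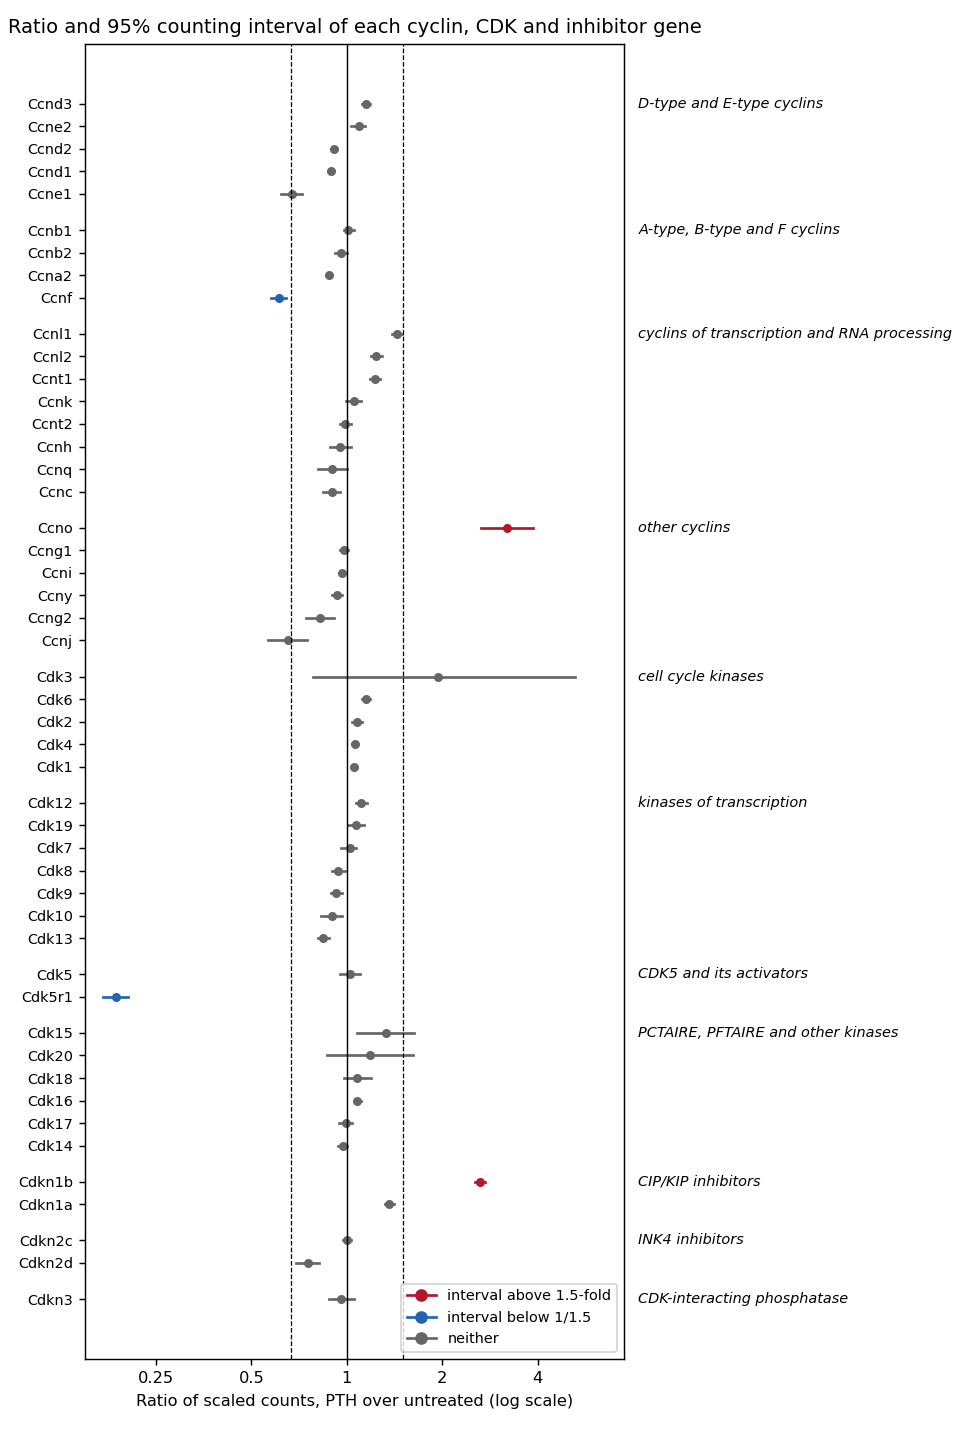
Scaled counts of the PTH library over those of the untreated library, with the 95% counting interval for 48 of the 49 genes, grouped by role, on a log axis with dashed lines at 1.5-fold in either direction. The whole intervals of Cdk5r1 and Ccnf lie left of the lines and those of Ccno and Cdkn1b right of them. The points of Ccnj (0.651) and Cdk3 (1.94) also lie outside the lines, but their intervals cross them. Cdkn1c, listed at 0 counts in the untreated library, has no ratio and is not drawn.

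Promoter sequences are shown for the genes past 1.5-fold that have an entry in the RefSeq promoter table (GRCm38.p6) and for Ccnl1, whose window holds a full cyclic AMP response element (CRE), the binding sequence of the CREB factors that cyclic AMP activates. Each window runs from 250 bases before the annotated start to 50 bases from it on. Capitals mark the CRE core TGACG, or its complement CGTCA, and the CCAAT box, or its complement ATTGG, wherever the letters occur on either strand. In Ccnl1 the overlapping cores make the full element TGACGTCA.
Cdkn1b (chr6:134920151-134920450, plus strand): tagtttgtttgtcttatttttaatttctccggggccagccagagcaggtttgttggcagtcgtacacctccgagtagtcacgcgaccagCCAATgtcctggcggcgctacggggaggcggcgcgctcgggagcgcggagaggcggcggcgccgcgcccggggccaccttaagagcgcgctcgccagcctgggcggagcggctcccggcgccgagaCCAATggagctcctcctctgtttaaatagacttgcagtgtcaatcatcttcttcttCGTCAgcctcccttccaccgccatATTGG
Ccno (chr13:112987552-112987851, plus strand): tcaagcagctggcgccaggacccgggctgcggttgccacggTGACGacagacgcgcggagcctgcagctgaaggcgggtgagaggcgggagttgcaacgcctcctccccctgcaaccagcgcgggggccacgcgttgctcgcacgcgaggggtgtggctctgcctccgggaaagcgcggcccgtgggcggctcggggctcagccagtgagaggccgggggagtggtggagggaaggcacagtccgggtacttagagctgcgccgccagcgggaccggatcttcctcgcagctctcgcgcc
Ccnf (chr17:24251360-24251659, minus strand): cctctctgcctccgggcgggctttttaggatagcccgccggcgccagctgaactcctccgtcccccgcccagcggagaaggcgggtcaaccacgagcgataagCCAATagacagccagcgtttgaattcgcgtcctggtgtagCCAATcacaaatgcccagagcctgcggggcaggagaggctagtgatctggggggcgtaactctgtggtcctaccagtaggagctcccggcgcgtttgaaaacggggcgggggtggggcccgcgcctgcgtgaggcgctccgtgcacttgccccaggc
Ccnl1 (chr3:65958200-65958499, minus strand): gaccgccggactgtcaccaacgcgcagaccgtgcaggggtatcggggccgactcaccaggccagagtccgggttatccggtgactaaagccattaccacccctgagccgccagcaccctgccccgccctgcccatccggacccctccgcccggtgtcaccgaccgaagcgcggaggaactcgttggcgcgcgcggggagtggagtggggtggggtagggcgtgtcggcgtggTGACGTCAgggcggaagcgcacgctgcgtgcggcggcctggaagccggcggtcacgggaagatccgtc

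The Cdkn1b window held a CRE core that begins 22 bases after the start and 3 CCAAT boxes, and the Ccno window a CRE core that begins 209 bases before the start. Neither the CRE core nor its complement occurs in the Ccnf window, which has 2 CCAAT boxes. The full element of Ccnl1 begins 18 bases before the start. Windows were found for 37 of the 49 genes, 41 windows in all, with none for Cdk5r1 and Cdkn1c. The full element was found in 1 of the 41 windows (2.44%), against 1.79% of all 32851 windows in the table. Its core TGACG, counted also where it is part of the full element, was in 18 (43.9%) against 20.8% of all windows, with each motif searched on both strands. The CCAAT box was in 20 (48.8%) against 37.4%, and the GC box GGGCGG in 33 (80.5%) against 35.7%. These shares describe letters in a window, with no test, and some genes have more than 1 window. The windows set beside them were not matched for base content or for the gene's counts. Whether the differences are particular to a motif was not tested.

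**Figure D2:**
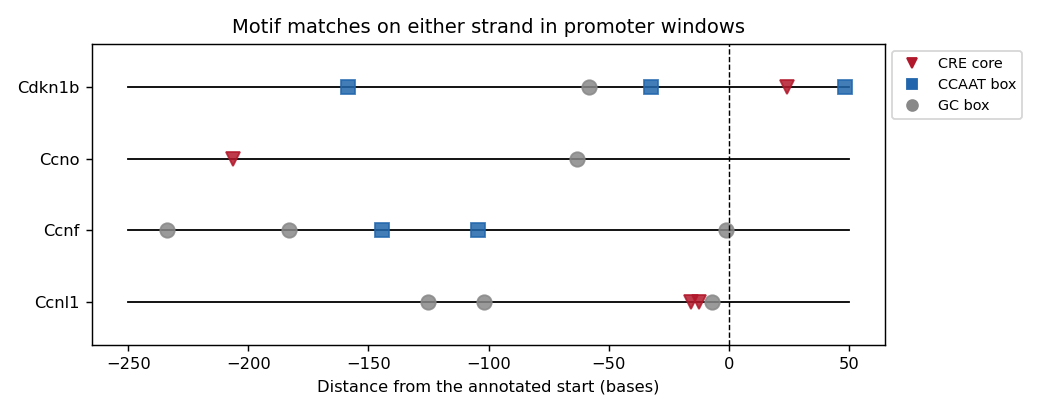
Positions of CRE cores (triangles), CCAAT boxes (squares) and GC boxes (circles) on either strand in the promoter windows of Cdkn1b, Ccno, Ccnf and Ccnl1, by distance in bases from the annotated start (dashed line). The overlapping cores of Ccnl1 lie just before the start, and the core of Ccno lies 209 bases before it.

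The inhibitors held the change with the most counts behind it. Cdkn1b encodes p27, which holds CDK2 complexes inactive in resting cells and lies at chromosome 6, 134920401 to 134925513 (plus strand, GRCm38, with an exonic length of 4552 bases). It had 12626 counts in the PTH library, against 4661 counts in the untreated library, which is 183 against 69.4 CPM (counts scaled by library size). The ratio was 2.63 (2.54 to 2.72). Of 2719 rows with a total count within 2-fold of its own, 37 (1.36%) had a ratio as high or higher. Cdkn1a encodes p21, the CDK inhibitor best known as a target of p53, and it had 10514 counts in the PTH library, against 7483 in the untreated library. Its ratio of 1.36 (1.32 to 1.41) lay above 1 and below 1.5-fold, and 5.90% of rows of like depth were as high or higher.

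Read per length, the makeup of the CIP/KIP family differed between the libraries. Cdkn1b made up 48.3% (47.6 to 48.9) of the family's counts per kilobase in the PTH library, against 32.7% (31.9 to 33.5) in the untreated library, and Cdkn1a made up 51.5% and 67.3%. The level of Cdkn1b over that of Cdkn1a, per length, was 0.937 in the PTH library and 0.486 in the untreated library. Cdkn1a therefore stood above Cdkn1b per length in both. In the PTH library that order rests on the exonic lengths. Without length Cdkn1b held 54.5% of the family's counts there and Cdkn1a 45.4%. The summed counts of the family were 23172 in the PTH library and 12144 in the untreated library, a ratio of 1.85. Among the 49 genes ranked by level per length, Cdkn1b was in place 8 in the PTH library and in place 15 in the untreated library.

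Cdkn1c encodes p57, the imprinted member of the family, and was listed at 32 counts in the PTH library and at 0 in the untreated library. No fold is given for it. Of the 2039 rows with totals of 20 to 49, 125 were listed at 0 in 1 library, 73 of them in the untreated one. Exons of another gene on the opposite strand cover 30.7% of its exonic length, and no source used here says whether counting was by strand. The call rests on the 32 counts of 1 library, and a 0 may not mean that no read was seen, since no source used here names the counting tool.

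The INK4 genes and Cdkn3 were not past the rule. Cdkn2c, which encodes p18, had 7696 counts in the PTH library, against 7462 in the untreated library, a ratio of 1.00 (0.970 to 1.03). Cdkn2d, which encodes p19INK4d, had 996 and 1283 counts, a ratio of 0.754 (0.693 to 0.820). Cdkn2c was the more abundant, with 81.9% (80.9 to 82.9) of the counts per length of this pair in the PTH library and 77.3% (76.3 to 78.4) in the untreated library. Cdkn2a and Cdkn2b, the genes of p16 and p15, were both listed at 0 in both libraries. Cdkn3, a phosphatase that acts on CDK2, was at 0.961 (0.881 to 1.05).

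The largest difference in either direction among the genes with a ratio was that of Cdk5r1. It encodes p35, which activates CDK5, a kinase known for its work in neurons, and lies at chromosome 11, 80477023 to 80481184 (plus strand). Cdk5r1 had 520 counts in the PTH library, against 2703 in the untreated library, or 7.52 against 40.3 CPM. It fell by a factor of 5.35 (4.87 to 5.89), to a ratio of 0.187, and 5 of 4218 rows of like depth were as low or lower. Cdk5 itself had 1500 counts in the PTH library and 1426 in the untreated library, a ratio of 1.02 (0.949 to 1.10). Per length, the level of Cdk5 was 5.54 times that of Cdk5r1 in the PTH library and 1.01 times that of Cdk5r1 in the untreated library. Cdk5r2, the gene of the related activator p39, was listed at 0 in both.

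Ccno was the cyclin with the largest ratio. Its product is known for making the centrioles of multiciliated cells rather than for driving the cell cycle, and the gene lies at chromosome 13, 112987802 to 112990777 (plus strand). It had 479 counts in the PTH library, against 146 in the untreated library, or 6.93 against 2.17 CPM. That is a ratio of 3.19 (2.64 to 3.86), and 32 of 2188 rows of like depth (1.46%) were as high or higher. The level was low in both libraries: per length Ccno was in place 41 of 49 in the PTH library and in place 46 in the untreated library. Mcidas and Cdc20b, the neighbouring genes on one side, also belong to the multiciliated cell programme, and both were listed at 0 counts in both libraries.

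Ccnf, the other gene in the lower direction, encodes an F-box protein that directs ubiquitin ligation and does not activate a CDK, and lies at chromosome 17, 24222198 to 24251484 (minus strand). It had 2027 counts in the PTH library, against 3228 in the untreated library. It was the member just inside the rule, 1.64-fold lower (1.55 to 1.73), and 1.26% of rows of like depth were as low or lower. The members just outside it were Ccnl1, at 1.44 (1.39 to 1.49), and Ccne1, at 0.670 (0.622 to 0.721). With intervals widened to allow a coefficient of variation of 0.1 or 0.2 between cultures, Ccnf was no longer past the rule, while Cdkn1b, Ccno, Cdk5r1 and, with 0.5 count added to its 0, Cdkn1c were. Of all compared rows, 4.14% were then higher and 2.46% lower at 0.1, and 2.89% higher and 1.63% lower at 0.2. With counts divided by 4, the interval of Ccnf was 1.47 to 1.84-fold lower and no longer past the rule, while the other 4 members were, beside 2.70% higher and 1.32% lower of all compared rows.

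**Figure D3:**
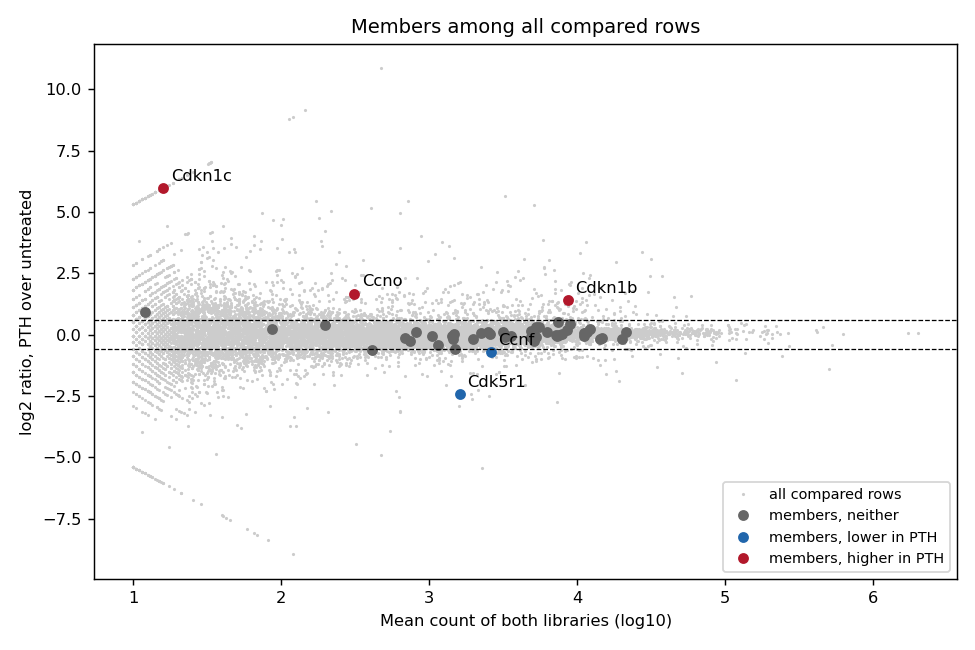
Log2 ratio, PTH over untreated, against the log10 of the mean count of both libraries for all 16408 compared rows (light dots) and the 49 genes (large dots), with dashed lines at 1.5-fold. Between the lines lie 42 of the 49 members, and Cdkn1c lies on the band of rows listed at 0 in the untreated library.

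Genes next to the members past the rule were read in the same way, taking the 2 nearest protein-coding genes on each side. Of these 20 neighbours 14 had a total of at least 20 counts, and none of the 14 had an interval beyond 1.5-fold. Beside Cdk5r1, Myo1d, whose nearer end lies 942 bases away, was at 0.927 (0.887 to 0.968), and Psmd11, 3775 bases away on the other side, was at 0.922 (0.891 to 0.954). Beside Cdkn1b, Gpr19 was at 1.43 (1.19 to 1.72) with 299 counts in the PTH library and 203 in the untreated library, and Apold1 was at 1.42 (1.06 to 1.91) with 117 and 80 counts. Crebl2 and Ddx47, farther out on either side of Cdkn1b, were at 0.887 and 0.997. Dhx29, 18.4 kb from Ccno, was at 1.06 (1.01 to 1.11), and Tedc2, 1347 bases from Ccnf, at 0.856 (0.790 to 0.926).

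Among the cyclins of G1 and the entry into S phase, none of 5 was past the rule. Ccnd1 had 19138 counts in the PTH library, against 20798 in the untreated library, a ratio of 0.894 (0.876 to 0.911). Ccnd2 had 14245 and 15177 counts, a ratio of 0.911 (0.891 to 0.933). Ccnd3 had 13250 and 11159, a ratio of 1.15 (1.12 to 1.18), so it lay on the other side of 1 from its relatives. Ccnd1 had the largest share of the family's counts per length, 57.3% (56.9 to 57.8) in the PTH library and 60.5% (60.1 to 60.9) in the untreated library. Ccnd3 made up 21.3% (21.0 to 21.6) in the PTH library and 17.4% (17.1 to 17.7) in the untreated library. These shares depend on the length used, the union of exons over all annotated transcripts. That union is 4709 bases over 3 transcripts for Ccnd1 and 8775 bases over 21 for Ccnd3. Without length, Ccnd1 held 41.0% of the family's counts in the PTH library and Ccnd3 28.4%, and 44.1% and 23.7% in the untreated library. Exons on the opposite strand cover 23.4% of the exonic length of Ccnd1, 19.7% of Cdk4, 17.4% of Ccne2 and 12.5% of Ccna2.

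The E-type cyclins parted in a similar way. Ccne1 had 1227 counts in the PTH library, against 1779 in the untreated library, while Ccne2 had 3337 and 2980, a ratio of 1.09 (1.03 to 1.14). Ccne1 made up 32.6% (31.1 to 34.0) of the pair's counts per length in the PTH library and 43.9% (42.5 to 45.4) in the untreated library. The intervals of the share in the PTH and untreated libraries do not overlap, and they cover counting error only.

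The kinases that these cyclins switch on had ratios close to 1. Cdk4 was the most abundant of the 49 genes per length in both libraries, at 99.7 CPM per kb in the PTH library and 93.9 in the untreated library. It had 22386 and 20477 counts, a ratio of 1.06 (1.04 to 1.08). Cdk6 was at 1.15 (1.12 to 1.18), Cdk2 at 1.08 (1.04 to 1.12) and Cdk1 at 1.05 (1.03 to 1.08). Of the counts per length of Cdk4 and Cdk6 together, Cdk4 held 91.2% in the PTH library and 91.8% in the untreated library. The remaining kinase, Cdk3, had 16 counts in the PTH library and 8 in the untreated library, with an interval of 0.784 to 5.24, and GENCODE M21 lists it as a polymorphic pseudogene.

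Cyclins of S phase and mitosis other than Ccnf were also near 1. Ccna2, the A-type cyclin of dividing cells, had 13548 counts in the PTH library, against 14977 in the untreated library, a ratio of 0.878 (0.858 to 0.899). Ccnb1 was at 1.01 (0.982 to 1.05) and Ccnb2 at 0.958 (0.915 to 1.00). Both B-type genes have processed pseudogenes in the annotation, with 76 and 130 counts for the copy of Ccnb1 in the PTH and untreated libraries, so a small part of their counts is uncertain. The ratios of these A-type and B-type genes lay between 0.878 and 1.01.

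**Figure D4:**
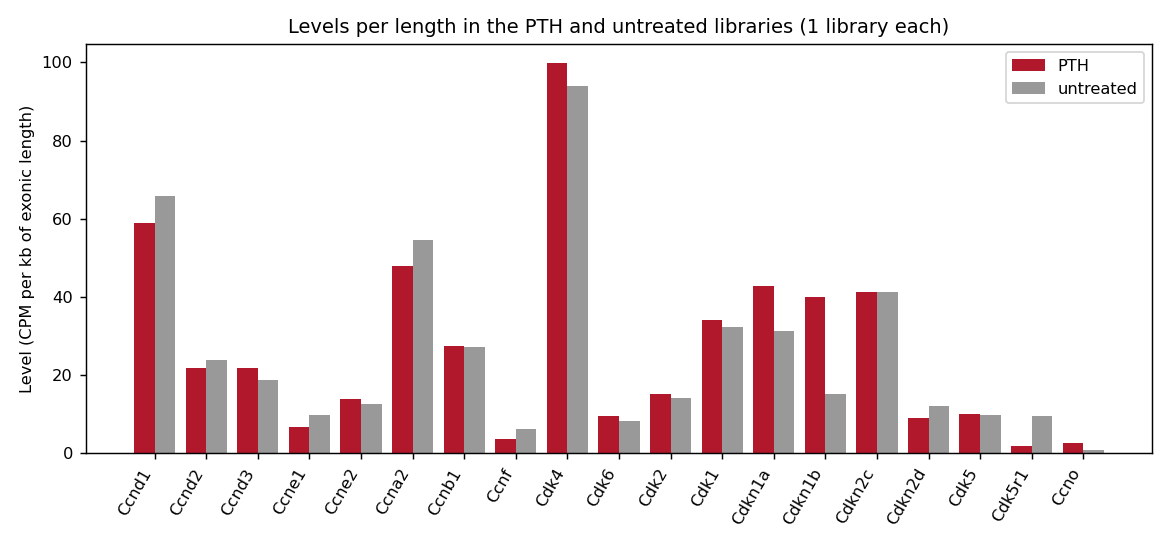
Level in CPM per kb of exonic length for 19 of the genes, PTH bars in red and untreated bars in grey, from 1 library each, with no error bars because there are no replicates. The Cdkn1b bar is higher in the PTH library (40.1 against 15.3 in the untreated library), the Cdk5r1 bar is lower (1.81 against 9.67), and Cdk4 is the highest in both.

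In the branch that serves transcription and RNA processing, none of 8 cyclins and none of 7 kinases was past the rule. Ccnl1, a cyclin of nuclear speckles that partners CDK11 in splicing, had 8855 counts in the PTH library, against 5978 in the untreated library. Its relative Ccnl2 had 5892 and 4617, a ratio of 1.24 (1.19 to 1.29). Ccnt1, the cyclin of the elongation factor P-TEFb, had 6171 and 4887, a ratio of 1.23 (1.18 to 1.27), while Ccnt2, the alternative subunit, was at 0.990 (0.952 to 1.03). The other cyclins of the branch, Ccnk, Ccnh, Ccnq and Ccnc, were between 0.897 and 1.05. The CRE core was found in the promoter windows of Ccnl1, Ccnl2, Ccnt1, Ccnc and Ccnq, with ratios on both sides of 1, and not in those of Ccnt2 and Ccnk. Among the kinases of the branch it was in the windows of Cdk7, Cdk8 and Cdk10 and not in those of Cdk9, Cdk12 and Cdk13, and no window was found for Ccnh and Cdk19.

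The 7 kinases of the branch were between 0.842 and 1.11. Cdk9, the kinase of P-TEFb, had 4794 counts in the PTH library, against 5026 in the untreated library, a ratio of 0.926 (0.890 to 0.964). Cdk12 was at 1.11 (1.07 to 1.16) and its close relative Cdk13 at 0.842 (0.810 to 0.876), though both take cyclin K, which was at 1.05 (0.991 to 1.11). Cdk7, the kinase that activates other CDKs with cyclin H, was at 1.02 (0.961 to 1.07). Cdk8 and Cdk19, the alternative kinases of the Mediator complex, were at 0.940 (0.895 to 0.987) and 1.07 (1.01 to 1.13), and Cdk10 at 0.896.

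Of the other cyclins, Ccni was the most abundant per length, at 48.4 CPM per kb in the PTH library and 50.0 in the untreated library, with a ratio of 0.968 (0.943 to 0.994). Ccng1, a target of p53, was at 0.982 (0.950 to 1.01), and Ccng2 at 0.822 (0.741 to 0.912). Ccnj had 331 counts in the PTH library, against 494 in the untreated library, a ratio of 0.651 (0.564 to 0.749), and its interval reached across the 1.5-fold line. Ccny, a membrane-bound cyclin that activates CDK14 and CDK16, was at 0.933 (0.898 to 0.969). Among the PCTAIRE, PFTAIRE and other kinases, Cdk16 was the most abundant per length, at 1.08 (1.05 to 1.11), followed by Cdk17, at 0.993 (0.946 to 1.04), and the other 4 were between 0.970 and 1.33.

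Across all 49 genes, the ratios lay within 1.1-fold of 1 for 24 genes (49.0%) and within 1.2-fold for 34 (69.4%). Among members with at least 1000 counts, 55.8% lay within 1.1-fold and 76.7% within 1.2-fold, beside 54.0% and 78.2% of all rows of that depth. The summed counts of all 49 were 269038 in the PTH library and 251665 in the untreated library, a ratio of 1.04 after scaling. The members therefore spread about as widely as other rows with as many counts.

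Other genes of the cell cycle were taken from 7 lists, beside the same background of 5.39% higher and 3.54% lower. Among rows with at least 1000 counts the background was 3.25% higher and 1.57% lower. Every gene of the replication and mitosis lists had at least 1000 counts. Of 18 genes of replication licensing and S phase none was past the rule, with ratios from 0.872 to 1.22, such as Rrm1 at 0.997 (0.980 to 1.01) and Pcna at 1.15 (1.13 to 1.17). None of 18 mitotic genes was past it, with a median log2 ratio of -0.12 and a range of 0.706 to 1.11, such as Top2a at 1.02 (1.01 to 1.04) and Mki67, the proliferation marker, at 0.843 (0.829 to 0.858). Of 17 RB and E2F genes, 2 were lower. E2f2, an activating factor, had 179 counts in the PTH library, against 336 in the untreated library, and was 1.93-fold lower (1.61 to 2.33). E2f8, a repressing factor, had 2171 and 3561 counts and was 1.69-fold lower (1.60 to 1.78). Neither was past the rule with a coefficient of variation of 0.1 allowed. The median of that list was -0.12.

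Of 19 regulators of CDK activity and cyclin destruction, 1 was higher. Spdya, which can activate CDK2 without a cyclin, had 73 counts in the PTH library, against 10 in the untreated library, a ratio of 7.09 (3.64 to 15.4). It shares 11.4% of its exonic length with another gene on its strand and 18.3% on the opposite strand. With a minimum of 100 counts no gene of this list was past the rule. Fbxo31 was at 1.56 (1.45 to 1.68), with an interval across the line, and the lowest ratio of the list was 0.741. Among 17 measured genes of p53 and its targets, 2 were higher and 2 lower. Gadd45a, a stress-induced growth arrest gene, had 395 counts in the PTH library and 150 in the untreated library, a ratio of 2.56 (2.11 to 3.11), with 19.1% of its exonic length under exons of the opposite strand, and the polo-like kinase gene Plk3 was at 1.79 (1.71 to 1.87). Bbc3, a cell death gene, was 2.41-fold lower (2.01 to 2.91), and Plk2 1.58-fold lower (1.51 to 1.65). None of the 4 was past the rule with a coefficient of variation of 0.2 allowed. Trp53 itself was at 0.950 (0.924 to 0.977).

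Partners of P-TEFb and of the Mediator kinases gave 2 higher of 14. Ell2, an elongation factor gene, had 1878 counts in the PTH library, against 783 in the untreated library, a ratio of 2.33 (2.14 to 2.53). Med12l, a Mediator subunit gene, had 153 and 33 counts, a ratio of 4.50 (3.07 to 6.77), and opposite-strand exons cover 17.3% of it. Hexim1, which inhibits P-TEFb, was at 1.53 (1.42 to 1.65), with an interval across the line. With a coefficient of variation of 0.2 allowed, 1 of the 14 was higher.

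The list of regulators upstream of D-type cyclins was the one with a median well away from 0, at a log2 ratio of 0.43, and 4 of its 14 genes were higher and 1 lower. The lists were chosen with earlier results of these data known, so how this list stands beside the others is no independent result. The antiproliferative gene Tob2 had 11154 counts in the PTH library, against 3024 in the untreated library, a ratio of 3.58 (3.44 to 3.73), and its relative Tob1 had 7379 and 2562, a ratio of 2.80 (2.67 to 2.93). Mxi1, an antagonist of MYC, was at 2.51 (2.34 to 2.69), and Klf4, a transcription factor that can arrest the cell cycle, at 2.37 (2.30 to 2.45). Mycn was the lower one, with 9 counts in the PTH library and 47 in the untreated library, while Myc had 10522 and 12184, a ratio of 0.839 (0.817 to 0.861). The 9 genes not past the rule lay between 0.839 and 1.47. Highest of them were Id2, at 1.47 (1.41 to 1.53), and Id1, at 1.45 (1.37 to 1.53). Their relative Id3 was at 1.02 (0.993 to 1.04). The antiproliferative gene Btg1 was at 1.31 (1.26 to 1.35) and Max at 0.925 (0.880 to 0.972). Of the MYC antagonists related to Mxi1, Mnt was at 1.37 (1.31 to 1.43), Mxd1 at 1.33 (1.20 to 1.47) and Mxd4 at 0.904 (0.872 to 0.938). With a coefficient of variation of 0.2 allowed, 2 of the 14 were higher, and with counts divided by 4 Mycn was no longer past the rule.

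**Figure D5:**
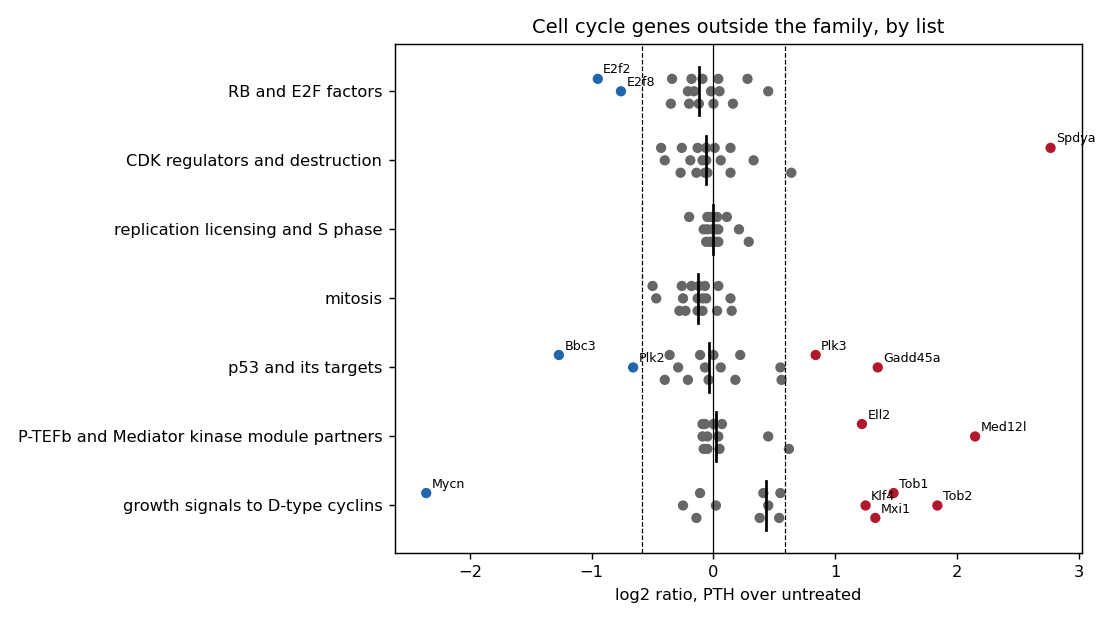
Log2 ratio, PTH over untreated, of each measured gene in the 7 lists of cell cycle genes outside the family, with the list's median as a black bar and dashed lines at 1.5-fold. Genes past the rule are named, red for higher and blue for lower, and the replication and mitosis lists have none.

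The label of the cells was checked against markers. All 7 osteoblast markers had at least 20 counts, with a summed level of 30654 CPM in the PTH library and 29259 in the untreated library, most of it Col1a1, at a ratio of 1.05. Sp7, the transcription factor osterix, had 1974 counts in the PTH library, against 4583 in the untreated library, and was 2.39-fold lower (2.27 to 2.52), the 1 marker of the 7 past the rule. Ibsp was at 0.774 (0.730 to 0.820), Pth1r, the gene of the PTH receptor, at 0.803 (0.772 to 0.835), Alpl at 1.02, Runx2 at 1.03 and Bglap at 1.48 (1.05 to 2.11). Adipoq, Plin1, Lep and Cfd, markers of fat cells, were at 0 in both libraries, as were Ptprc and Adgre1 of blood cells, Cdh5 and Kdr of endothelium, Myod1, Ckm and Actn2 of muscle, and Acan, Col10a1 and Matn1 of cartilage. Other markers of these lists were not at 0. Fabp4 of fat cells had 45 counts in the PTH library and 34 in the untreated library, and Pecam1 of endothelium had 9 and 9. Cd68 of macrophages had 57 and 67, and Comp of cartilage 124 and 152. Acp5 of osteoclasts, Tek of endothelium and Myog of muscle had 8, 4 and 4 in the PTH library and 0 in the untreated library. The summed level was 94.3 CPM in the PTH library and 85.3 in the untreated library for the 5 macrophage and osteoclast markers, most of it Ctsk. For the 5 cartilage markers it was 557 and 413 CPM, most of it Col2a1, and their part in the results was not tested.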

How the data were processed

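RNA of MC3T3-E1 cells was sequenced in 2 libraries, PTH and untreated, with groups taken from the labels. The authors deposited 1 table of whole-number counts per gene, with no normalisation. The submitters' processing notes name the aligner HISAT2 and the genome build mm10. The aligner's version, the counting tool, the annotation and any use of strand were not given in the sources used here. Rows join gene ID and symbol by a bar, and row numbers drop in steps of 4 at low counts, so the values may be rebuilt from transcript coverage rather than single reads, and intervals may then be too narrow. All 49 members have an entry in GENCODE M21 (GRCm38, also called mm10), from which coordinates, exonic length (union of exons) and shared exons were taken.

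Counts were scaled by TMM effective library sizes (edgeR 4.0.16, R 4.3.3) over the 16408 rows with a total of at least 20. With 1 library per group, no quasi-likelihood test of edgeR could be fitted. Ratios have 95% exact Clopper-Pearson intervals (scipy 1.17.1, Python 3.11.15), tested only on simulated Poisson counts, the case that such intervals assume. They cover counting error only, and reads copied by PCR are not independent. Shares of a family have exact binomial intervals moved to the per-length scale. For log2 ratios 0.5 count was added. Rows of like depth have a total count within 2-fold.

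Named members are those past the rule, the 2 most abundant per length in each role, the D-type, CIP/KIP, INK4, CDK5 and cell cycle kinase families and those beside the 1.5-fold line. From each list up to 4 genes past the rule are named, or the 2 with most counts. Neighbours, other members and further list genes were added after their values were seen. Those list genes are Trp53, Hexim1, Fbxo31, Klf4, Myc, Btg1, Mnt, Mxd1, Mxd4, Id1, Id2, Id3 and Max. Members and lists were chosen with earlier results of these data known. Alternatives were other scalings (including the size factors of DESeq2 1.42.0), count filters, fold limits, widened intervals, counts divided by 4 and rows with shared exons left out.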

Additional observations from a re-analysis of the deposited data

How the results depend on the processing

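With total counts, DESeq2 size factors or upper-quartile factors the same 5 members were past the rule. Log2 ratios shifted by at most 0.04, and 4 of 48 members (Ccnb1, Cdk5, Cdk7 and Cdkn2c) moved to the other side of 1. Intervals widened for a coefficient of variation of 0.1 or 0.2 kept 3 higher members and left 1 lower, Cdk5r1, since a wider interval reaches further toward 1. A limit of 25% above 1, or the same fold below, gave 5 higher (adding Ccnl1 and Cdkn1a) and 4 lower (adding Ccne1 and Ccnj) of the 49 members. Of all 16408 compared rows, 1495 were then higher and 1213 lower. A limit of 2 left Cdk5r1 as the 1 lower member, beside 517 higher and 262 lower of all compared rows. Leaving out rows with 20% or more shared exons, or under 100 counts, left 2 higher, Cdkn1b and Ccno. A minimum of 1000 counts, chosen after seeing the data, left 1 higher, Cdkn1b. Counts divided by 4, also chosen after seeing the data, left 3 higher and 1 lower, Cdk5r1.

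Among all 16408 compared rows, 884 were higher and 581 lower. With a coefficient of variation of 0.2 these became 474 and 267, and with counts divided by 4, 443 and 217. They became 1495 and 1213 at the limit of 25%, and 517 and 262 at 2-fold. Count filters change the number of rows compared. They gave 543 and 307 with at least 100 counts, 1386 and 983 with at least 1, and 310 and 150 of 9549 with at least 1000. In the pathway lists, the 2 lower RB and E2F genes became 0 with a coefficient of variation of 0.1. The p53 list, at 2 higher and 2 lower, became 1 and 1 at 0.1 and 0 and 0 at 0.2. At 0.2 the list upstream of D-type cyclins had 2 higher instead of 4, and the P-TEFb list 1 instead of 2. A minimum of 100 counts left 0 higher CDK regulators instead of 1. It also left 0 lower genes upstream of D-type cyclins instead of 1. With counts divided by 4, the lower genes became 1 of RB and E2F, 1 of p53 and 0 upstream of D-type cyclins, and the higher genes stayed at the same numbers. Without length, Ccnd1 held 41.0% of D-type counts in the PTH library and 44.1% in the untreated library, and Cdkn1b 54.5% and 38.4% of CIP/KIP counts. Per length the main values were 57.3%, 60.5%, 48.3% and 32.7%. No paired analysis was possible because each group has 1 library, and the variation between cultures is unknown. Depth limits Cdk3, Cdk20 and Cdk15, whose intervals span 1.5-fold.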
